A study of Homo sapiens with 4 samples.

Results

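Angiogenic factors and inhibitors were followed as 10 genes chosen by symbol, VEGFA, VEGFB, VEGFC, FGF2, ANGPT1, ANGPTL4, THBS1, THBS2, NRP1 and NRP2, among the 57500 genes counted in 4 RNA-seq libraries of SUM159 cells. SUM159 is a human triple-negative breast cancer line of the metaplastic (MpBC) kind. One library came from parental SUM159 cells (genotype Parental Control), and 3 came from NOS2KO clones, numbered 1, 5 and 6, with 1 library each and no drug treatment stated in the labels. NOS2 encodes the inducible nitric oxide synthase iNOS. The NOS2KO cells had received a double nickase plasmid against NOS2, had been grown under puromycin, and had been picked as clones by iNOS immunoblot and by nitrite and nitrate release. The parental cells are not described as having gone through plasmid, puromycin or cloning, so those steps and the loss of NOS2 cannot be told apart here. Each NOS2KO library is 1 clone, and the spread between them is the spread between clones. NOS2 mRNA stood at 2 counts in parental cells, against 3 (clone 1), 18 (labelled clone 5) and 1 (clone 6). It thus did not check the labels, and because it was highest in a knockout, the wording "labelled clone 5" is kept.

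The VEGF ligands act on endothelial receptors, VEGFA and VEGFB mainly on blood vessels and VEGFC mainly on lymphatic vessels, and FGF2 is a second growth factor that drives endothelial cells. ANGPT1 steadies vessels through the receptor TIE2, encoded by TEK. Thrombospondins are matrix proteins that restrain vessel growth, and neuropilins are co-receptors that bind both VEGF and class 3 semaphorins. In breast tumours such genes set the supply of vessels, and a cultured carcinoma line shows only the tumour cell side of that exchange.

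The libraries held 90467395 to 122171287 counts on genes, so that a floor of 3 counts lay at 0.0246 to 0.0332 CPM, the share of a gene in all counts of its library on a fixed scale. All 10 genes passed the filter on low counts, which kept 22511 genes, and none was near the floor. CPM values are relative to the library size scaled by edgeR's TMM method, and a change is the log2 fold change of the NOS2KO clones against the parental library in edgeR's quasi-likelihood test. The call rules were 2, namely an adjusted p under 0.05 (Benjamini-Hochberg over the 22511 genes) and a second rule without adjustment, an unadjusted p under 0.05 with a log2 fold change above 1 or below -1, the thresholds the study set for this comparison. As the parental cells have 1 library, the test took its spread from the clones, which leaves 2 residual degrees of freedom.

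VEGFA, FGF2 and ANGPTL4 were lower in all 3 clones and THBS1, NRP1 and VEGFB were higher in all 3, while VEGFC, ANGPT1, THBS2 and NRP2 did not share a direction. The parental level was 5.08 times the clone mean for VEGFA, 7.14 times for FGF2 and 5.28 times for ANGPTL4, and the clone mean was 24.4 times the parental level for THBS1. In such bulk libraries, fewer cells with a transcript and less of it per cell cannot be told apart. With adjustment, 0 of the 10 genes passed in edgeR's quasi-likelihood test, where 0.00444% of all genes tested did. At an unadjusted p under 0.05 there were 4 of 10, where 11.5% of all genes tested were. By the second rule 3 genes were lower, against 5.34% of all genes tested, and 1 was higher, against 4.24%. Without the library labelled clone 5, the log2 fold change was -2.23 for VEGFA, -2.99 for FGF2 and 3.68 for THBS1. For ANGPTL4 it was -2.38, and that gene no longer met the second rule. DESeq2's Wald test called VEGFA, FGF2 and THBS1 at an adjusted p under 0.05, in a background of 4.86%, which was 2.4% for lower and 2.47% for higher genes. Of all genes tested 30.5% were lower in all 3 clones and 28.6% higher, so 3 of 10 each way is near the background. VEGFA and FGF2 were lower by over 2 on the log2 scale in every clone, as were 1.92% of genes tested, and THBS1 was higher by over 2 in every clone, as were 2.92%. The 10 genes, and the lists used below, were chosen with earlier results of these data known. Their shares here and below thus describe them and do not test them as a group.

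**Figure D1:**
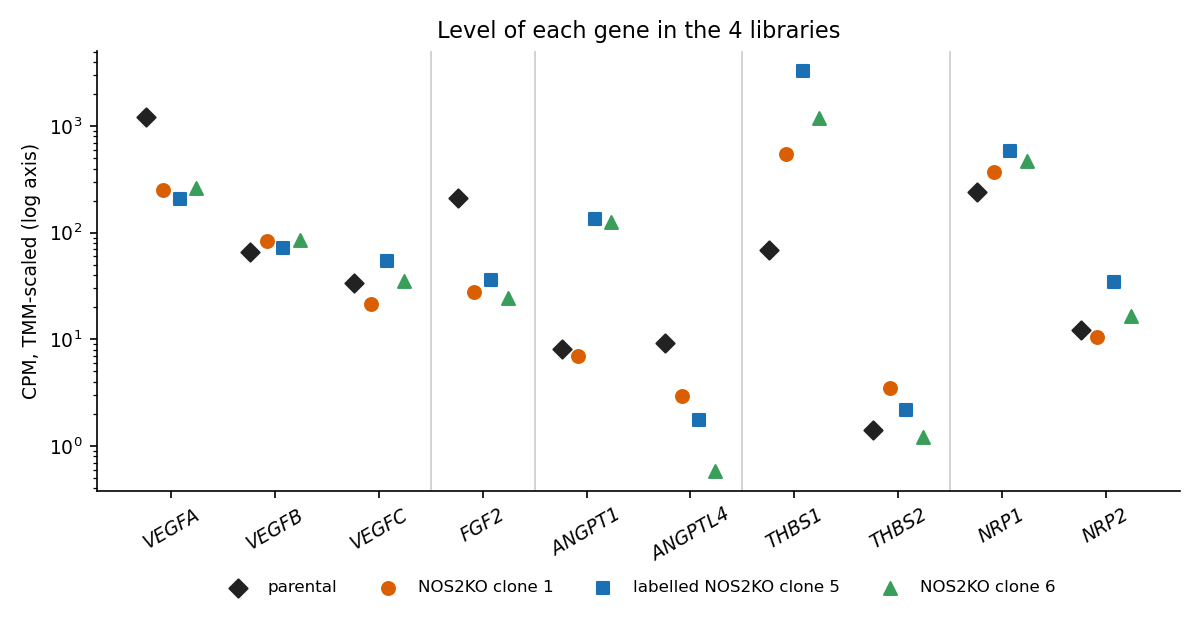
TMM-scaled CPM (log axis) of the 10 genes in parental cells and the 3 NOS2KO libraries, 1 point per library. The clones lie together and below the parental library for VEGFA and FGF2. For THBS1 they lie above it and apart from each other. ANGPT1 separates clone 1 (6.96 CPM) from the library labelled clone 5 (134 CPM) and clone 6 (127 CPM).

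Among the VEGF ligands, VEGFA (ENSG00000112715, chromosome 6 of GRCh38 from 43770184 to 43786487, plus strand), the main inducer of vessel sprouting, stood at 1217 CPM in parental cells, against 251 (clone 1), 205 (labelled clone 5) and 262 (clone 6). The 3 clones lay close together, with 1.28 times between the highest and the lowest, and all of them well below the parental cells. The parental level was 4.84 times that of clone 1, 5.93 times that of the library labelled clone 5 and 4.65 times that of clone 6. Over the clones the level was 239 ± 30.1 CPM (SD, n = 3), and the log2 fold change was -2.35 (standard error 0.32, adjusted p = 0.259 in edgeR's quasi-likelihood test, 7.33e-07 in DESeq2's Wald test). With each clone left out in turn it lay between -2.41 and -2.23. Ranked by CPM per kilobase among the 22511 genes, VEGFA went from place 445 in the parental library to places 2385 to 3068 in the clones. Gene counts do not separate the splice forms of VEGFA.

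VEGFB (ENSG00000173511, chromosome 11 from 64234538 to 64238793), a ligand of VEGFR1 tied to fatty acid uptake more than to sprouting, stood at 65.3 CPM in parental cells, against 83.5 (clone 1), 72.0 (labelled clone 5) and 85.7 (clone 6). It was higher in every clone by a small step, and the library labelled clone 5 stood nearest to the parental cells. The log2 fold change was 0.30 (standard error 0.27, adjusted p = 0.700). VEGFC (ENSG00000150630, chromosome 4 from 176683538 to 176792727) stood at 33.8 CPM in parental cells, against 21.6 (clone 1), 54.8 (labelled clone 5) and 35.0 (clone 6). The parental level thus fell inside the range of the clones, and the log2 fold change was 0.14 (standard error 0.56, adjusted p = 0.941). It was -0.23, the reverse direction, without the library labelled clone 5.

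The makeup of the VEGF ligand mRNAs differed between parental cells and clones. Per kilobase of summed exon length, VEGFA made up 59.99% of the summed level of the 3 genes in parental cells, 21.7% in clone 1, 17.02% in the one labelled clone 5 and 20.6% in clone 6. The share of VEGFB was 30.1% in parental cells and 55.8% to 67.3% in the clones. The sum itself was 140.5 CPM per kilobase in parental cells and 80.4 to 88.0 in the clones. These shares depend on the gene length, since the summed exons of VEGFA span 14431 bases and its longest coding transcript 3535. With the longest coding transcript as length the share of VEGFA was 84.4% in parental cells and 42.4% to 50.0% in the clones, so it was lower in each clone by either length, while which of VEGFA and VEGFB was the more abundant in the clones is not settled.

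**Figure D2:**
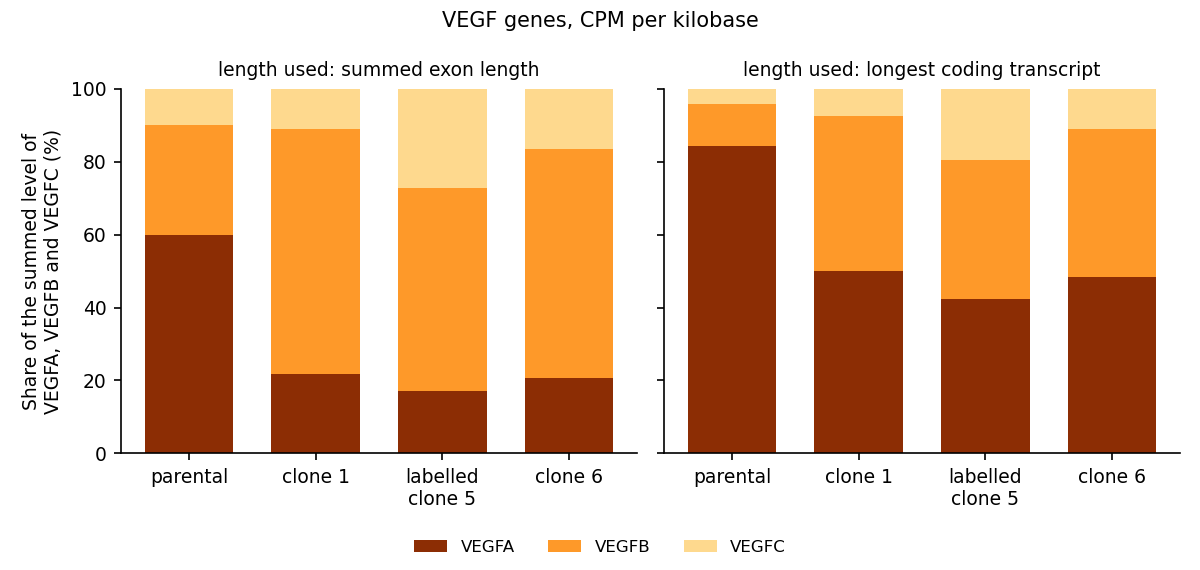
Share (%) of VEGFA, VEGFB and VEGFC in their summed CPM per kilobase in each library, with the summed exon length (left) or the longest coding transcript (right) as length. VEGFA takes 59.99% of the parental bar and at most 21.7% of a clone's bar on the left, and 84.4% and at most 50.0% on the right.

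FGF2 (ENSG00000138685, chromosome 4 of GRCh38 from 122826708 to 122898236, plus strand), basic fibroblast growth factor, stood at 210.4 CPM in parental cells, against 27.99 (clone 1), 36.1 (labelled clone 5) and 24.3 (clone 6). All clones lay far below the parental level, and they differed by at most 1.48 times among themselves. The parental level was 7.52 times that of clone 1, 5.84 times that of the library labelled clone 5 and 8.66 times that of clone 6. The log2 fold change was -2.84 (standard error 0.33, adjusted p = 0.259 in edgeR's quasi-likelihood test, 1.07e-07 in DESeq2's Wald test), and -2.99 to -2.71 with each clone left out in turn. FGF2 shares 804 bases, 11.9% of its exon bases, with NUDT6, which lies on the other strand and is also known as the antisense gene of FGF2. NUDT6 stood at 339 counts in parental cells, against 728 (clone 1), 406 (labelled clone 5) and 454 (clone 6), against 2396 to 19021 for FGF2. Reads on the shared bases cannot be told apart without strand, and their part in the result was not tested.

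The letters before the RefSeq start of FGF2, THBS1 and ANGPTL4, which met the second rule and have a promoter in the RefSeq table of GRCh38.p14, are printed to set genes that differed in opposite directions side by side. They run 5′ to 3′ on the gene's strand and stop before the first base of the window that the count files annotate as exon, and capitals mark matches on either strand to the searched motifs. A match is a description of letters and not a bound site. FGF2 is shown at chr4:122826581-122826707, THBS1 at chr15:39580829-39581078 and ANGPTL4 at chr19:8363905-8364150, all on the plus strand. The ANGPTL4 stretch lies inside the gene as counted, whose first annotated base is 8363289, and overlaps none of its exons.
FGF2: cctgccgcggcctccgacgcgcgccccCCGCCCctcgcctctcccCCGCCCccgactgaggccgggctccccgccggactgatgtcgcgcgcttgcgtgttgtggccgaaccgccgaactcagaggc
THBS1: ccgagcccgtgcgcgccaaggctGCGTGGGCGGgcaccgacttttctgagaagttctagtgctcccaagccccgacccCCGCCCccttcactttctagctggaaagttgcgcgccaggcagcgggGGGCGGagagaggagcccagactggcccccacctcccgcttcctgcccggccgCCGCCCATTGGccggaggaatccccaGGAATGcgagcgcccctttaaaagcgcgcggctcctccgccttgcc
ANGPTL4: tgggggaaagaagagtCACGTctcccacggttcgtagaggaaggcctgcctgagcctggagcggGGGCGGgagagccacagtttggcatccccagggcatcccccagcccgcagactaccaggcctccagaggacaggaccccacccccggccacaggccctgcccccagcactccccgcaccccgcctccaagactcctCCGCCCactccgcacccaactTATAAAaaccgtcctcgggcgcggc
The motifs were searched on both strands. TGAGTCA is read by AP-1, the dimer that holds c-Jun, a factor the study follows. ACGTG is the core read by HIF, GGAATG that of TEAD, GCGTGGGCG that of EGR1 and GGGCGG that of Sp1, and the TATA box (letters TATAAA) and the CCAAT box were searched besides. The EGR1 match in THBS1 overlaps an Sp1 match. Of the 10 genes 7 were in the table. In the window of 300 bases around the start, 0 of the 7 held the AP-1 letters, which 4.95% of all 35116 promoters held. Over so few promoters 0 is near that share, and VEGFA, ANGPT1 and NRP1 were not in the table. THBS1 held 1 EGR1 match at bases -227 to -219 from the start, present in 0.795% of promoters, 1 TEAD match at bases -46 to -41 (14% of promoters), 4 Sp1 matches (45%) and 1 CCAAT box (34.6%). ANGPTL4 held 1 HIF match at bases -234 to -230 (21.4%), a TATA box at bases -29 to -24 (11.5%) and 2 Sp1 matches. FGF2 held 3 Sp1 matches, of which 2 lie in the printed stretch, and none of the other letters.

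THBS1 (ENSG00000137801, chromosome 15 of GRCh38 from 39581079 to 39599466, plus strand) encodes thrombospondin 1, a matrix glycoprotein that restrains vessel growth and activates latent TGF-beta. It stood at 69.0 CPM in parental cells, against 550.1 (clone 1), 3302 (labelled clone 5) and 1192 (clone 6). Every clone stood far above the parental cells, and the clones also stood apart from each other, with 6.00 times between the highest and the lowest. Relative to parental cells the level was 7.97 times as high in clone 1, 47.8 in the one labelled clone 5 and 17.3 in clone 6. Ranked by CPM per kilobase, THBS1 held place 5573 of 22511 in parental cells and places 786 (clone 1), 78 (labelled clone 5) and 282 (clone 6). The clone mean was 1681 ± 1439 CPM (SD, n = 3), and the log2 fold change was 4.61 (standard error 1.01, adjusted p = 0.357 in edgeR's quasi-likelihood test, 0.000222 in DESeq2's Wald test). Without the library labelled clone 5 it was 3.68. THBS1 shares 7.56% of its exon bases with genes on the other strand, 411 of them with the antisense gene ENSG00000278621, which stood at 18 counts in parental cells, against 103 (clone 1), 325 (labelled clone 5) and 165 (clone 6). The antisense counts had the order of THBS1 over the 4 libraries, and how many of them are reads of THBS1 was not tested.

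THBS2 (ENSG00000186340, chromosome 6 from 169215780 to 169254044), the related thrombospondin, was a low gene and stood at 1.40 CPM in parental cells, against 3.48 (clone 1), 2.167 (labelled clone 5) and 1.21 (clone 6). Clone 6 lay below the parental library and the other clones above it, and THBS2 was highest in clone 1, where THBS1 was lowest among the clones. Its log2 fold change was 0.70 (standard error 0.76, adjusted p = 0.754). Per kilobase, THBS1 exceeded THBS2 by 34.3 times in parental cells and by 110 to 1064 times in the clones.

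The level of THBS1 relative to VEGFA differed between parental cells and clones. Per kilobase of summed exon length, VEGFA was 11.2 times THBS1 in the parental library, whereas THBS1 was 3.45 times VEGFA in clone 1, 25.4 times in the one labelled clone 5 and 7.18 times in clone 6. With the longest coding transcript as length, VEGFA was 38.8 times THBS1 in parental cells, and the ratio of THBS1 to VEGFA was 0.996 in clone 1, 7.32 in the one labelled clone 5 and 2.07 in clone 6. The ratio was thus higher in each clone than in parental cells by either length, and its side of 1 in clone 1 depends on the length.

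Of the angiopoietin-related genes, ANGPT1 (ENSG00000154188, chromosome 8), the ligand of TIE2, stood at 8.11 CPM in parental cells, against 6.96 (clone 1), 134 (labelled clone 5) and 127 (clone 6). Clone 1 resembled the parental cells, and the other clones lay far above both, at 16.5 and 15.7 times the parental level. Relative to parental cells the log2 ratio was -0.22 for clone 1 (exact 95% bounds -0.37 and -0.07), 4.05 for the one labelled clone 5 (3.94 to 4.16) and 3.97 for clone 6 (3.86 to 4.08). The level in the library labelled clone 5 was 19.3 times that of clone 1, while clone 6 was at 0.9498 of the library labelled clone 5. The fitted log2 fold change over these unlike clones was 3.46 (standard error 1.48, adjusted p = 0.532). It met the second rule without clone 1, at 4.01, and with DESeq2's Wald test.

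ANGPTL4 (ENSG00000167772, chromosome 19 of GRCh38 from 8363289 to 8374373), a secreted inhibitor of lipoprotein lipase that hypoxia and PPAR factors induce, stood at 9.27 CPM in parental cells, against 2.92 (clone 1), 1.75 (labelled clone 5) and 0.588 (clone 6). All clones were lower, and they spread over 4.97 times. Relative to parental cells the log2 ratio was -1.67 for clone 1 (exact 95% bounds -1.85 and -1.48), -2.40 for the one labelled clone 5 (-2.64 to -2.17) and -3.98 for clone 6 (-4.39 to -3.59), the last resting on 58 counts. The log2 fold change was -2.40 (standard error 0.94, adjusted p = 0.411). Without the library labelled clone 5 it was -2.38 and no longer met the second rule.

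NRP1 (ENSG00000099250, chromosome 10 of GRCh38 from 33177492 to 33336262), the neuropilin that joins VEGFA to its receptor, stood at 239 CPM in parental cells, against 368 (clone 1), 578 (labelled clone 5) and 467 (clone 6). It was higher in each clone, by 1.54, 2.42 and 1.95 times in that order. The log2 fold change was 0.98 (standard error 0.38, adjusted p = 0.452). It did not meet the second rule, and did so without clone 1, at 1.13. NRP2 (ENSG00000118257, chromosome 2 from 205681990 to 205798133), the neuropilin of lymphatic vessels, stood at 12.3 CPM in parental cells, against 10.6 (clone 1), 34.5 (labelled clone 5) and 16.5 (clone 6). The parental level lay within the range of the clones, and only the library labelled clone 5 was more than 2 times away from it. Its log2 fold change was 0.74 (standard error 0.71, adjusted p = 0.729), and 0.16 without the library labelled clone 5.

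**Figure D3:**
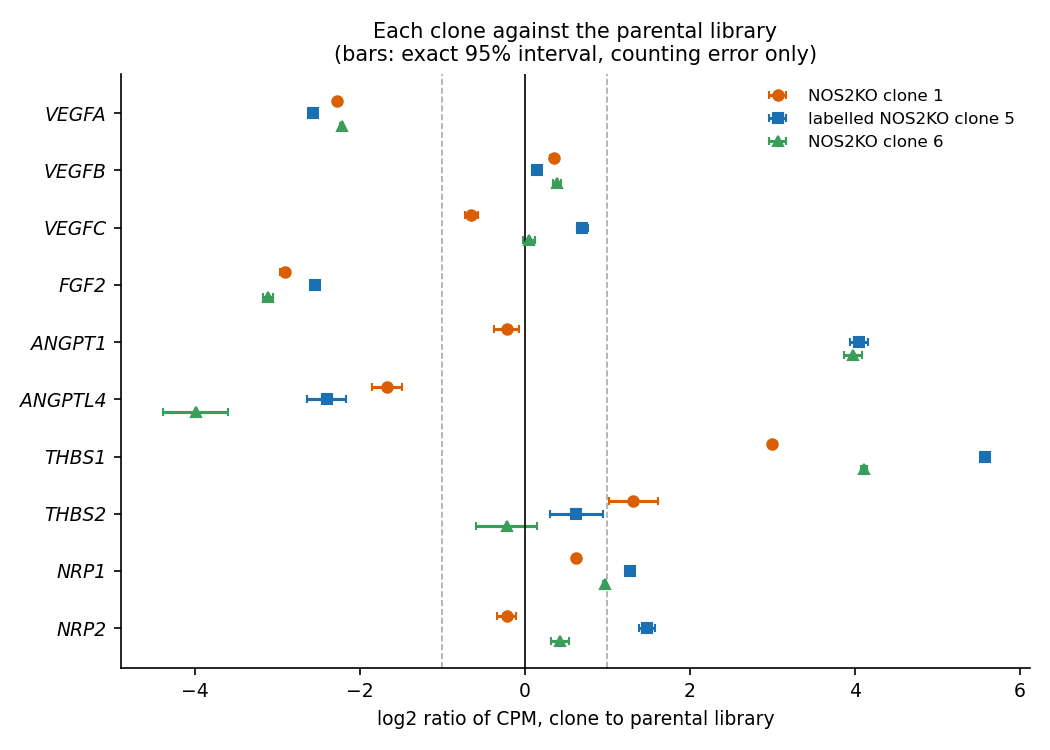
log2 ratio of TMM-scaled CPM of each clone to the parental library, with the exact 95% interval from the counts (counting error only) and dashed lines at 1 and -1. For VEGFA the 3 clones lie between -2.57 and -2.22 and for FGF2 between -3.11 and -2.54, while for ANGPT1 they lie at -0.22, 4.05 and 3.97.

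Set against the parental library one at a time, 5 of the 10 genes were past 1 on the log2 scale in clone 1, 7 in the one labelled clone 5 and 5 in clone 6, where 37.3%, 36% and 36% of all genes tested were. VEGFA, FGF2 and ANGPTL4 were the lower genes in each clone, against 20.2%, 14.7% and 16.7% of all genes in the same order. THBS1 was higher in each, joined by THBS2 in clone 1, by ANGPT1, NRP1 and NRP2 in the one labelled clone 5 and by ANGPT1 in clone 6, against 17.1%, 21.3% and 19.3%. The 3 comparisons share the parental library. The clones themselves had a common order in 5 of the 10 genes, VEGFC, ANGPT1, THBS1, NRP1 and NRP2, which were lowest in clone 1 and highest in the library labelled clone 5. Of all genes tested 20.2% had that order. The order was picked after the values of the 10 genes were seen, so these shares describe it and test nothing. VEGFA and FGF2 were the genes of this group with a large difference from the parental library and a small one between clones, 1.28 and 1.48 times from lowest to highest, against 4.97 to 19.3 times for ANGPTL4, THBS1 and ANGPT1.

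**Figure D4:**
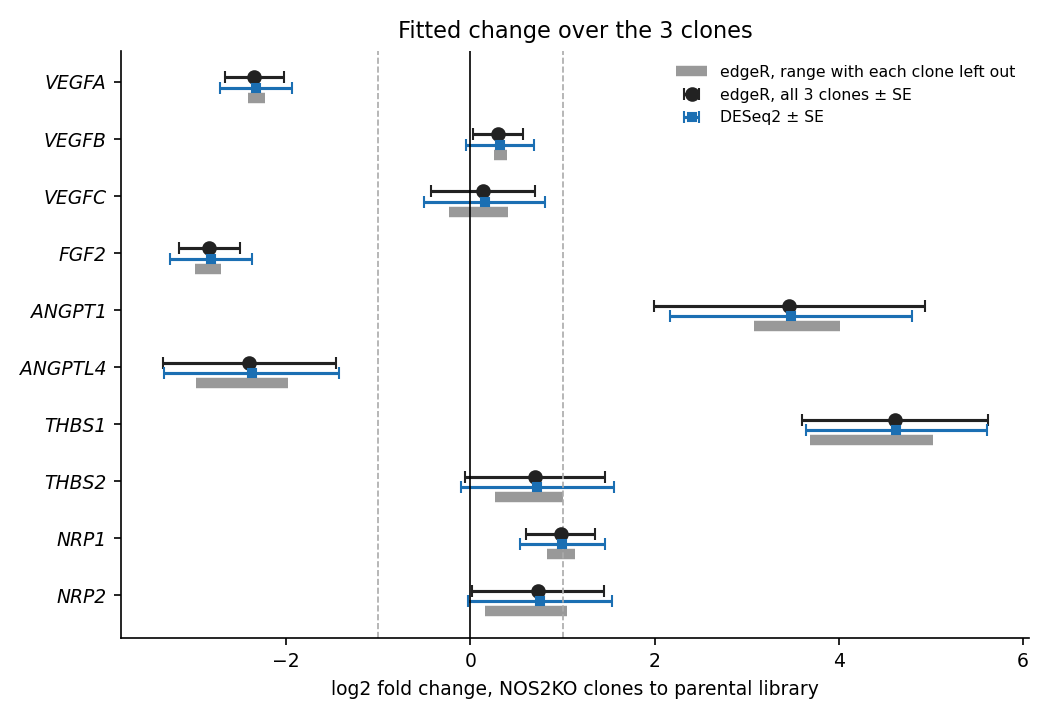
Fitted log2 fold change of the 3 NOS2KO clones against the parental library from edgeR and from DESeq2, each with its standard error, and the range of the edgeR value with each clone left out (grey). VEGFA (-2.35), FGF2 (-2.84), ANGPTL4 (-2.40) and THBS1 (4.61) lie past the dashed lines at 1 and -1, as does ANGPT1 (3.46) with a standard error of 1.48.

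The other genes of the pathway were taken from 9 lists of ligands, receptors, inhibitors and regulators, in all 97 genes, of which 90 passed the filter. With adjustment 0 of the 90 passed in edgeR's quasi-likelihood test, with 13 at an unadjusted p under 0.05 (11.5% over all genes tested) and 9 at an adjusted p under 0.05 in DESeq2's Wald test (4.86%). By the second rule 13 were called, 4 lower and 9 higher, where the share over all genes tested was 9.58%. The median log2 fold change of the 90 was 0.38, and that of all genes tested 0.10. In all 3 clones 30 of the 90 were higher and 20 lower, where 28.6% and 30.5% of all genes tested were.

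Of 19 other angiogenic ligands, 3 were higher and 1 lower by the second rule, against 4.24% and 5.34% of all genes tested. CCN2, a matricellular growth factor, had 15.0 CPM in parental cells and 104 ± 46.7 over the clones (SD, n = 3), and the fitted difference was 2.79 on the log2 scale (standard error 0.53, adjusted p = 0.332). PTN, the heparin-binding cytokine pleiotrophin, had 21.6 CPM and 176 ± 97.6, a fitted difference of 3.03 (standard error 0.63, adjusted p = 0.334). APLN, the peptide apelin, went from 0.586 to 5.49 ± 4.05 CPM, and ANGPT4 from 0.974 to 0.202 ± 0.0966 CPM. CCN1, with CCN2 a target of the YAP and TEAD factors and with PTN the most abundant of these ligands, had 90.3 CPM and 397 ± 299 without meeting the rule (log2 fold change 2.14, standard error 0.84). The median over the ligands was 1.27.

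Of the receptors 13 were tested and 0 met the second rule, where 9.58% of all genes tested did. In DESeq2's Wald test 0 had an adjusted p under 0.05 (4.86% of all genes tested). The median log2 fold change of the 13 was 1.14, the value of PDGFRB (standard error 1.16). PDGFRB was lower in clone 1 (66.4 CPM) than in parental cells (181 CPM). The receptors to which the VEGF ligands and ANGPT1 bind were hardly present. FLT1, KDR, FLT4 and TEK had at most 2.83, 0.698, 0.328 and 2.02 CPM in a library, and for FLT1, FLT4 and TEK that was the library labelled clone 5. The most abundant receptors per kilobase were PDGFRB, with 181 CPM in parental cells and 398 ± 287 in the clones, and EPHB4, with 169 and 247 ± 16.2 CPM. FGFR1, a receptor of FGF2, stood at 137 CPM in parental cells, against 59.1 (clone 1), 131 (labelled clone 5) and 132 (clone 6).

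Among 13 other inhibitors of vessel growth, 2 were higher and 1 lower by the second rule, against 4.24% and 5.34% of all genes tested. SPARC, a matrix protein that binds collagen and was the most abundant of them, stood at 624 CPM in parental cells, against 1891 (clone 1), 4724 (labelled clone 5) and 3150.4 (clone 6). Its log2 fold change was 2.38 (standard error 0.59, adjusted p = 0.354), and its order over the libraries was that of THBS1. ADAMTS1, a protease that cuts versican and binds VEGF, had 16.1 CPM and 205 ± 185 in the clones (log2 fold change 3.67, standard error 0.98), and ISM1, isthmin, had 3.10 and 0.462 ± 0.250 CPM (-2.74, standard error 0.87). COL18A1, the source of endostatin, had 188 CPM and 438 ± 201 without meeting the rule. TIMP3 stood at 437 CPM in parental cells, against 2.15 (clone 1), 309 (labelled clone 5) and 3.55 (clone 6), so it was nearly lost from clones 1 and 6.

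Of 13 neuropilin partners, which are class 3 semaphorins, plexins and the adaptor GIPC1, 3 were higher by the second rule and 0 lower. The shares over all genes tested were 4.24% and 5.34%. SEMA3A had 14.1 CPM in parental cells and 53.0 ± 20.7 in the clones, SEMA3D 3.74 and 13.5 ± 2.76 CPM, and the plexin PLXNA3 53.5 and 107 ± 19.3 CPM. SEMA3C and GIPC1, the most abundant, had log2 fold changes of 0.23 and -0.09. Of 4 genes listed as thrombospondin receptors, 1 met the rule, where 9.58% of all genes tested did. It was CALR, with 851 CPM in parental cells and 2209 ± 445 in the clones. Its log2 fold change was 1.38 (standard error 0.40), and LRP1 did not meet the rule (0.37, standard error 0.64). The mRNA level does not show how much of the CALR product lies at the cell surface. CD47, the main signalling receptor of thrombospondin 1, lay between 95.3 and 101 CPM in all 4 libraries, and CD36 at no more than 3.04 CPM. None of the 5 tested angiopoietin-like genes besides ANGPTL4 met the rule (9.58% of all genes tested did), and each was at most 1.22 CPM in every library. ANGPTL2 and ANGPTL6, the most abundant of them, had log2 fold changes of 1.20 (standard error 1.496) and -0.14 (standard error 0.67).

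Upstream regulators were tested beside VEGFA and ANGPTL4, both of which hypoxia can induce. Of 8 HIF subunits and oxygen sensors, EPAS1 (HIF-2 alpha) and VHL were lower by the second rule and 0 were higher. The shares over all genes tested were 5.34% and 4.24%. EPAS1 had 433 CPM in parental cells and 170 ± 42.5 in the clones (log2 fold change -1.35, standard error 0.39, adjusted p = 0.345), and VHL 166 and 81.2 ± 17.3 CPM (-1.03, standard error 0.35). HIF1A had 744 CPM in parental cells and 487 ± 57.0 in the clones (-0.61, standard error 0.32). Of 10 other hypoxia-induced genes 0 met the rule in edgeR's test, where 9.58% of all genes tested did. In DESeq2's Wald test 0 of these genes had an adjusted p under 0.05 (4.86% of all genes tested). Over so few genes 0 is near those shares. The median log2 fold change of the 10 hypoxia-induced genes was -0.03. SLC2A1, the glucose transporter GLUT1 and the most abundant of them per kilobase, stood at 224 CPM in parental cells, against 375 (clone 1), 179 (labelled clone 5) and 76.0 (clone 6). ADM, the vasodilator peptide adrenomedullin and next in abundance, stood at 37.9 CPM in parental cells, against 40.3 (clone 1), 71.0 (labelled clone 5) and 125 (clone 6). These genes had no common order over the libraries, with CA9, NDRG1, BNIP3, SLC2A1, ANKRD37 and P4HA1 highest in clone 1, ADM and VLDLR highest in clone 6, and PDK1 and KDM3A highest in parental cells. Of 6 PPAR-responsive lipid genes 0 met the rule, where 9.58% of all genes tested did. ACADVL and HADHA, the most abundant, had log2 fold changes of -0.17 and 0.52.

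**Figure D5:**
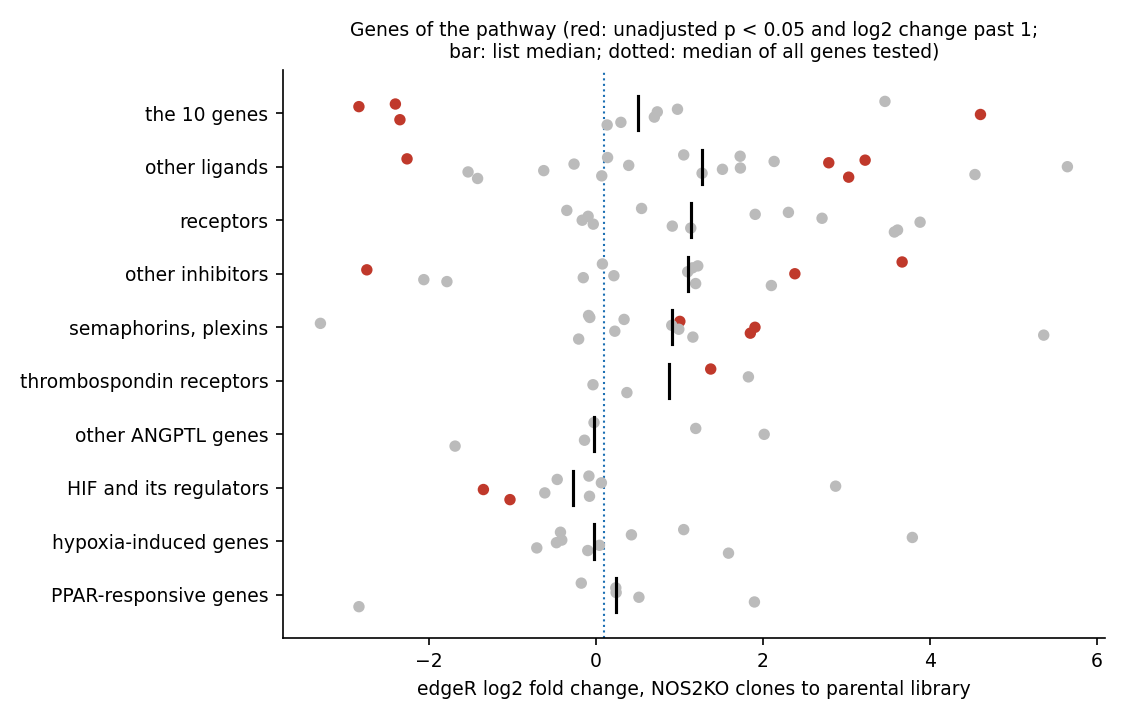
edgeR log2 fold change of every tested gene of the pathway lists and of the 10 genes, 1 point per gene, red where the second rule was met, with the list median (bar) and the median of all genes tested (dotted, 0.10). The medians of other ligands (1.27), receptors (1.14) and other inhibitors (1.10) lie to the right of the dotted line, and those of the HIF regulators (-0.27) and hypoxia-induced genes (-0.03) to its left. Higher in all 3 clones were 9 of 19 ligands, 4 of 13 receptors and 5 of 13 inhibitors (28.6% of all genes tested). Lower in all 3 were 4, 1 and 3 in that order (30.5% of all genes tested).

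The labelled cell type was checked with marker lists. Mesenchymal carcinoma markers summed to 4783 to 7727 CPM over 6 genes, with VIM at 1655 to 3855 CPM. VIM, FN1, AXL and CD44 were higher in each clone, and CDH2 did not share a direction. ZEB1 was lower in each, at 83.7 CPM in parental cells, against 39.5 (clone 1), 50.0 (labelled clone 5) and 57.8 (clone 6). The 5 luminal markers summed to at most 1.37 CPM. Endothelial markers summed to 12.6 to 17.1 CPM, and PECAM1 made up most of the sum in parental cells, clone 1 and clone 6. In the library labelled clone 5, PECAM1 stood at 7.06 CPM, less than the other endothelial markers together. CDH5 was at most 3.49 CPM and VWF at most 3.799 CPM, both in the library labelled clone 5. PECAM1 was lower in each clone, and CDH5, VWF, TIE1 and ESAM were higher in each, though TIE1 and ESAM hardly so in clone 1. CLDN5 did not share a direction. Of the mural markers PDGFRB, NOTCH3 and MCAM were well expressed in parental cells and RGS5 and DES were at most 2.29 CPM. NOTCH3 was lower in each clone, at 170 CPM in parental cells, against 10.2 (clone 1), 84.3 (labelled clone 5) and 49.5 (clone 6). PDGFRB and MCAM were lower than in parental cells in clone 1 and higher in the other clones. Of the leukocyte markers PTPRC, which encodes CD45, had 4.45 CPM in parental cells and 68.4, 105 and 41.7 CPM in clone 1, the library labelled clone 5 and clone 6, while CD3E was at most 0.0750 CPM and CD68 at most 0.294 CPM. CD14, the other leukocyte marker above 1 CPM, was lower in each clone, at 12.8 CPM in parental cells, against 2.29 (clone 1), 4.28 (labelled clone 5) and 11.3 (clone 6). PTPRC met the second rule (log2 fold change 4.01, standard error 0.56, adjusted p = 0.282), and the mural marker RGS5 was lower by it. PTPRC was higher in every clone, as were THBS1 and 28.6% of all genes tested, but its order over the clones was not that of THBS1. The part of any other cell in these results was not tested.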

How the data were processed

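RNA of parental SUM159 cells and of 3 NOS2KO clones was sequenced from paired-end libraries made with oligo(dT) selection on a HiSeq instrument of Illumina. The authors deposited, for each library, raw counts of reads per gene without any scaling. Per the labels' processing notes bcl2fastq 2.17, Trimmomatic 0.36, STAR 2.5.2b, featureCounts of Subread 1.5.2 and DESeq2 were used with GRCh38, while the annotation and strand setting are not given in the sources used here. Reads that overlap several genes may have been left out of the counts.

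Symbols came from GENCODE release 29, which named 56898 of the 57500 genes, and the 10 genes had the same start and end there. Tests on the counts ran under R 4.3.3 in edgeR 4.0.16 (filter by filterByExpr on the 2 groups, TMM, estimateDisp, glmQLFit, glmQLFTest at their defaults, common dispersion 0.319, 2.75 prior degrees of freedom), and with DESeq2 1.42.0 as an alternative. The standard error came from the information matrix of the fit. The log2 ratio of 1 clone to the parental library has an exact Clopper-Pearson 95% interval. Intervals and floors cover counting error only, and p-values measure the spread between clones, taken to hold for parental cells. An exact permutation of 1 library against 3 cannot go below 0.25. Python 3.11.15, pandas 2.3.3, scipy 1.17.1 and matplotlib 3.10.9 were used besides. The fits and the interval were tested on simulated data.

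The 10 genes and the lists were chosen with earlier results of these data known. Genes named besides the 10 were those of the lists that met a call rule, the 2 of each list with the highest mean CPM per kilobase, and others named for their role or after their values were seen (the VEGF and TIE2 receptors, FGFR1, TIMP3, CD47, CD36, FGF1, SEMA3E, EGLN3, the other hypoxia-induced genes and the markers). CCN1 and CCN2 were found through their current symbols. Alternatives were other scalings, filters and tests and each clone left out. The length of the longest coding transcript (GENCODE 29 basic set) was added after the data were seen. No set test was run.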

Additional observations from a re-analysis of the deposited data

How the results depend on the processing

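VEGFA, FGF2 and THBS1 met the second rule in all of the 12 fits, which were the one reported and 11 alternatives. Of 110 alternative values of the log2 fold changes of the 10 genes, 106 kept their direction and their side of an adjusted p of 0.05, 3 passed it (VEGFA, FGF2 and THBS1 with DESeq2's Wald test) and 1 reversed, VEGFC at -0.23 without the library labelled clone 5 (0.41 without clone 1). Over the fits the adjusted p lay between 7.33e-07 and 0.726 for VEGFA, 1.07e-07 and 0.726 for FGF2, and 0.000222 and 0.739 for THBS1, each highest without clone 6.

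With DESeq2's Wald test, an adjusted p under 0.05 was found for 3 of the 10 genes in place of 0, for 9 pathway genes in place of 0 and for 1095 of all genes in place of 1, and the second rule called 2 of the 10 genes as higher in place of 1, 24 pathway genes in place of 13 and 1591 higher genes in all in place of 955. At an adjusted p under 0.05 the bias-adjusted quasi-likelihood fit called 5 genes in all and no filter 6, the latter with 21 pathway genes by the second rule. With a clone left out, edgeR called 0 genes in all with adjustment and, at an unadjusted p under 0.05, from 1467 (without clone 6) to 4609 (without clone 1), and 1 residual degree of freedom was left. The second rule then called 1 to 3 of the 10 genes as higher, ANGPT1 and NRP1 besides THBS1 without clone 1, and 2 or 3 as lower, since ANGPTL4 was lost without the library labelled clone 5. Genes of the 10 above the parental level in every remaining clone numbered 3 to 6, namely 6 without clone 1, where 40.2% of all genes did so, 3 without the one labelled clone 5 (34.3%) and 4 without clone 6 (33.4%). Pathway genes called numbered 11 to 33, and higher genes in all 641 to 1791, each most without clone 1. Upper quartile scaling moved the median log2 fold change of all genes by 0.10 and no filter by 0.21, and the other settings moved it by less. The cause of these differences was not tested. Leaving a clone out changes both the number of samples and which clones remain, and the 2 cannot be told apart here. No paired analysis was possible because the parental cells have 1 library.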

Other observations

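Over the 3 log2 ratios to the parental library, the genes nearest to VEGFA in a set of 10709 genes that reached 10 CPM in some library were PTGES, the prostaglandin E synthase (Euclidean distance 0.145), E2F5 (0.196) and the antisense gene SH3RF3-AS1 (0.225). PTGES stood at 172 CPM in parental cells, against 32.5 (clone 1), 27.7 (labelled clone 5) and 36.3 (clone 6). The genes nearest to THBS1 were COL4A4, a collagen IV chain (0.377), OLFML2B (0.747) and ZNF608 (0.858). COL4A4 stood at 0.332 CPM in parental cells, against 2.77 (clone 1), 13.3 (labelled clone 5) and 4.91 (clone 6). These are descriptions over 4 libraries that share 1 parental library, with no test.

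FGF1, the other FGF ligand followed, stood at 0.0332 CPM in parental cells, against 0.105 (clone 1), 4.93 (labelled clone 5) and 0.132 (clone 6). SEMA3E, a semaphorin that binds plexin D1, stood at 0.111 CPM in parental cells, against 10.5 (clone 1), 2.74 (labelled clone 5) and 0.548 (clone 6). EGLN3, an oxygen sensor that hypoxia induces, stood at 9.08 CPM in parental cells, against 146 (clone 1), 31.7 (labelled clone 5) and 21.8 (clone 6). These genes were chosen after their values were seen. None of them met the second rule in edgeR's quasi-likelihood test, and SEMA3E had an adjusted p of 0.00807 in DESeq2's Wald test.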
